A study of Mus musculus with 37 samples.

Results

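The genes described here act at the epithelial surface against microbes: Pglyrp1, Dmbt1, Lcn2, Ceacam1, Lypd8, Pigr, Duox2 and Duoxa2. They were picked by name from the 3 deposited count tables, 8 genes of 31533 distinct gene symbols, with their responses to VIP and to irradiation in these data already in view. The calls and adjusted p-values given for them are therefore a description, not independent evidence that this group responds. Vasoactive intestinal peptide (VIP) is a neuropeptide that signals through G protein-coupled receptors, mainly by raising cyclic AMP. Jejunal organoids, which are 3-dimensional epithelial cultures grown from crypts, came from female and male adult mice aged 6 to 12 weeks. Whole organoids from C57Bl/6 mice were grown with 100 nM VIP for 72 h (4 mice) or left untreated (3 of the same mice). Lgr5-EGFP+ progenitor cells were sorted from organoids of Lgr5-EGFP-IRES-CreERT2 reporter mice, in which the Lgr5 locus drives the fluorescent marker, after the same 72 h with or without VIP (4 mice each). In the irradiation experiment, also read out in sorted Lgr5-EGFP+ cells, organoids of another 4 mice received 6 Gy of X-rays or none, and were then kept with or without VIP for 48 h, giving 4 groups of 4. Organoids hold epithelium without the immune cells and bacteria of the gut. The samples held 3722716 to 6330404 counted molecules in whole organoids, 575242 to 1104126 in the first sorted experiment and 1075715 to 1876729 in the irradiation experiment.

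The mucosal surface is defended in layers. Enterocytes and secretory cells release proteins that bind or sequester microbes, carry antibodies into the lumen, coat the apical membrane with heavily glycosylated proteins and make hydrogen peroxide. Among the secreted proteins, Pglyrp1 is a peptidoglycan recognition protein, Dmbt1 is a scavenger receptor-rich glycoprotein that agglutinates bacteria, and Lcn2 (lipocalin 2) binds bacterial siderophores. Ceacam1 is an adhesion glycoprotein of the apical membrane, Lypd8 is a GPI-anchored protein that keeps flagellated bacteria away from the epithelium, and Pigr is the polymeric immunoglobulin receptor. Duox2 is a dual oxidase that makes hydrogen peroxide and Duoxa2 is the maturation factor it needs to reach the membrane.

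Duox2 and Duoxa2 share a locus, and their promoters are shown because both genes rose with VIP in whole organoids. In GRCm38 with GENCODE M21 genes, Duox2 lies at chr2:122279247-122298449 on the minus strand and Duoxa2 at chr2:122298900-122302885 on the plus strand, with 451 bases between the annotated starts. Duoxa2 overlaps 695 bases of Duoxa1 on the opposite strand, and use of strand in counting is not given in the sources used here. Duoxa1 had at most 1 count in any sample. Dmbt1 overlaps Fgfr2 and Ceacam1 overlaps the antisense gene 4732471J01Rik in the same annotation, each on the opposite strand. The promoters of Pglyrp1 (chr7:18871331-18890459, plus strand) and Ceacam1 (chr7:25461707-25477603, minus strand) are shown because both genes were higher with VIP in 3 comparisons. The windows run from 250 bases before to 50 bases after the RefSeq start (GRCm38.p6), 5′ to 3′ on the gene's strand, with searched motifs in capitals. The RefSeq start of Pglyrp1 lies inside its GENCODE span, which begins at 18871331, and no window at that GENCODE start was searched. The RefSeq starts of Duox2 (122298227 against 122298449) and Lcn2 (32387739 against 32388252) also lie inside their GENCODE spans. No window was set on the GENCODE start of either gene. The bases between the Duox2 window, which ends at 122298477, and the Duoxa2 window, which begins at 122298650, were not searched.
Duox2 promoter, chr2:122298178-122298477, minus strand: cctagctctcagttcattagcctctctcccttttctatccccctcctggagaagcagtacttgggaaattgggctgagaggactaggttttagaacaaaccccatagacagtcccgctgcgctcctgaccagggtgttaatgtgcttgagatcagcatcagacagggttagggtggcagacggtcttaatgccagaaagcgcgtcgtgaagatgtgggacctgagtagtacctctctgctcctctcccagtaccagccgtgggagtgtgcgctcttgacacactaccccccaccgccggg
Duoxa2 promoter, chr2:122298650-122298949, plus strand: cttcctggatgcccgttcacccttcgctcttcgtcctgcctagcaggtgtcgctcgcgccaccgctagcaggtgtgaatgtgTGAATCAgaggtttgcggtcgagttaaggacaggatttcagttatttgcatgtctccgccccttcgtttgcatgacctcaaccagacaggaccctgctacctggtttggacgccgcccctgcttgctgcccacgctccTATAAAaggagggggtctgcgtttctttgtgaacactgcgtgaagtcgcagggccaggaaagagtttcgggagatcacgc
Pglyrp1 promoter, chr7:18884440-18884739, plus strand: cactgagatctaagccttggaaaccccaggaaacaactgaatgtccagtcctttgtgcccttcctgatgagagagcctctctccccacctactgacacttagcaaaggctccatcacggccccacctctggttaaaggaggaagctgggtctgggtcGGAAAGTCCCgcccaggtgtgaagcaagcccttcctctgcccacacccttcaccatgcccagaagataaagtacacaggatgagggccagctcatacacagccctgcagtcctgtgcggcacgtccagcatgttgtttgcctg
Ceacam1 promoter, chr7:25477576-25477875, minus strand: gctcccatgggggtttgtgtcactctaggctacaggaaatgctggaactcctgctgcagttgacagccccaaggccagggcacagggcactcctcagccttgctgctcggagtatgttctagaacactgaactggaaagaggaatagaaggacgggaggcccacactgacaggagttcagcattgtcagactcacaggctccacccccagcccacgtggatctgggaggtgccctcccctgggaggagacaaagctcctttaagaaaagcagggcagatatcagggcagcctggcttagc

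Both strands of the promoters of 7 of the 8 genes were searched, Dmbt1 having no entry in the table used. The cyclic AMP response element TGACGTCA, found in 1.79% of 32851 promoters of this length, and TGACG, which the longer element contains and 20.8% hold, were in none of the 7. The AP-1 motif TGANTCA was found once, in Duoxa2 168 bases before the start (7.81% of all promoters hold it). The TATA box letters TATAAA were also found in Duoxa2, 30 bases before the start (13.6% of promoters). An NF-κB motif was found in Pglyrp1, 93 bases before the start (8.46% of promoters). The STAT motif TTCNNNGAA was found in Pigr after its start (8.30% of promoters). These matches describe letters in the windows. Binding was not measured.

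One library stood apart from the others of its label. This was seen in Clca1, named after its values were seen, and in Duoxa2 and Dmbt1, which are called with VIP below. The second technical replicate library labelled as VIP-treated mouse 3 had 52.2 CPM (counts per 1000000 counted molecules, after scaling) of Clca1, a goblet cell secretory protein, against 40.0 to 60.3 in the 5 libraries of untreated organoids and 176 to 340 in the other 7 libraries of VIP-treated organoids. The first library of that same sample had 340 CPM of Clca1. For Duoxa2 the libraries of that sample held 50.6 and 8.98 CPM, and for Dmbt1 65.7 and 187 CPM. Untreated mouse 3 has 1 library, and whether the second VIP-treated library carries the right label could not be settled from these files. Both libraries of VIP-treated mouse 3 were summed into 1 sample as the labels direct. How the calls of the described genes in whole organoids fared with each of them left out is given below. The plot of single libraries shows how far they lie apart for each gene.

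**Figure D1:**
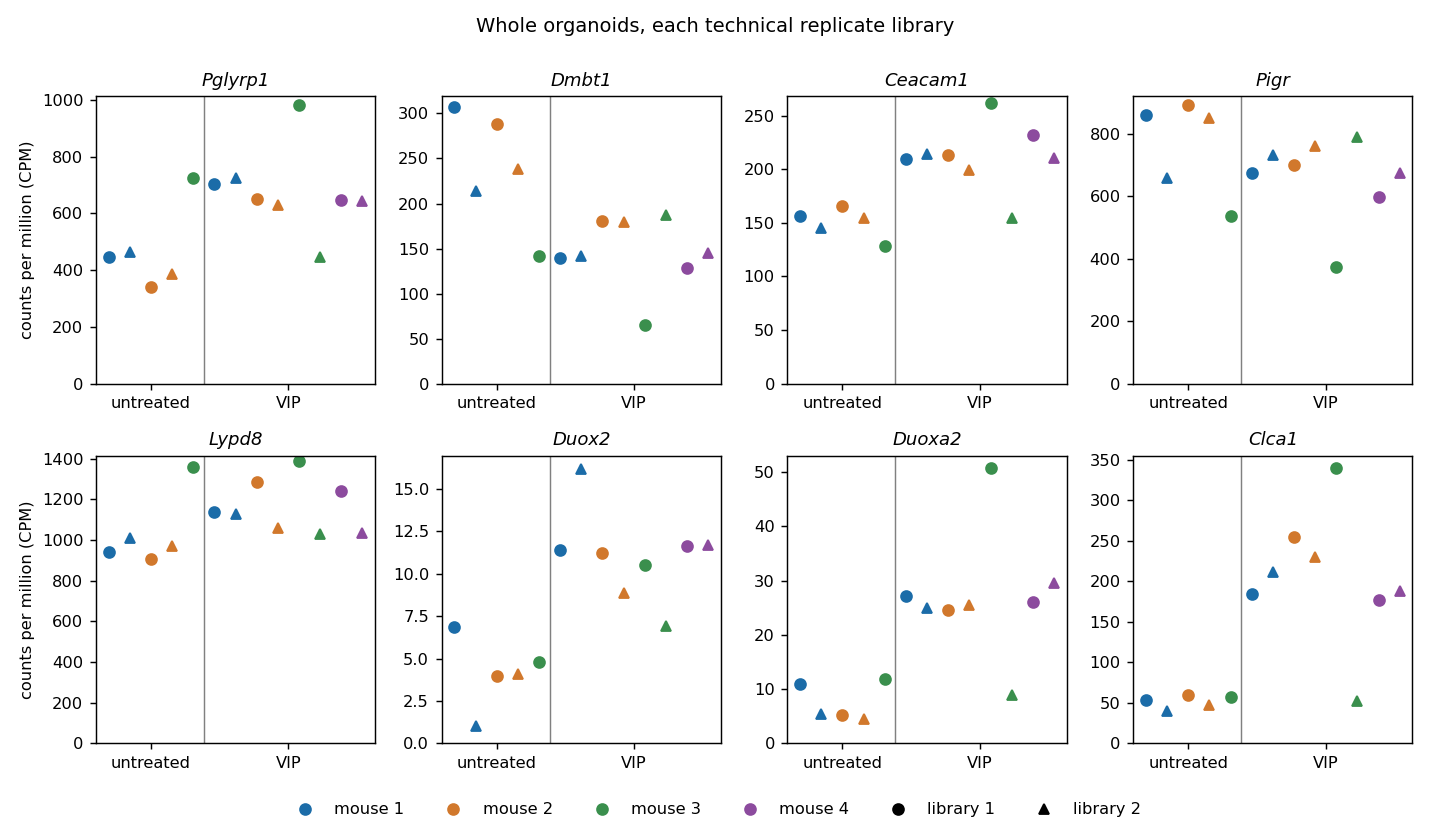
CPM (vertical axes, linear, from 0) of 7 of the genes and of Clca1 in each of the 13 whole organoid libraries, untreated left of the line and VIP-treated right of it; colours mark mice, circles the first and triangles the second technical replicate library. The second library labelled VIP-treated mouse 3 (green triangle) has 52.2 CPM of Clca1 and 8.98 CPM of Duoxa2, among the untreated libraries, while the first has 340 and 50.6 CPM.

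In whole organoids, VIP was accompanied by higher Duoxa2, Duox2, Ceacam1 and Pglyrp1 and lower Dmbt1, while Pigr and Lypd8 did not pass the threshold and Lcn2 was at the edge of detection. Of the 8 genes, 7 had enough counts to be tested and 5 passed an adjusted p of 0.05 in a model paired by mouse, 4 higher and 1 lower, against 4.82% of all 12727 genes tested. The median log2 fold change of the 7 was 0.50, beside -0.0041 over all genes tested.

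Pglyrp1 was measured at 450.1, 361 and 732 CPM in untreated organoids of mice 1, 2 and 3. With VIP it was at 707, 631, 762 and 642 CPM in mice 1 to 4. It was higher with VIP in 3 of 3 mice, but by little in mouse 3, whose untreated organoids were already among the VIP-treated samples, so the groups overlapped. On the log2 scale VIP raised it by 0.50 (SE 0.12, adjusted p = 0.0289). Dmbt1 moved the other way, from 258, 257 and 142 CPM untreated to 139, 178, 113 and 135 CPM with VIP. It was lower in 3 of 3 mice, and here too the untreated sample of mouse 3 lay inside the VIP range. The log2 difference was -0.59 (SE 0.11, adjusted p = 0.00540).

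Lcn2 gave 0 to 2 counts per sample in every group of every experiment. In whole organoids it summed to 7 counts in 38135519, or 0.184 CPM, with an exact Poisson interval of 0.0738 to 0.378 CPM that covers counting error only. In the irradiation experiment it summed to 11 counts, 6 of them in the 4 samples given both irradiation and VIP. Neutrophil markers there summed to 4.73 to 11.3 CPM in irradiated and 1.88 to 5.15 CPM in non-irradiated samples, mostly from Ltf, with at most 1 count of Mpo or S100a9 in any sample. In the first sorted experiment there was 1 count in 8 samples, and the untreated group was at 0 of 2694586 counts, for which a limit of 3 counts is 1.11 CPM and the exact Poisson upper bound 1.37 CPM. Lcn2 did not pass the expression filter in any comparison, and no fold is given.

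On the membrane, Ceacam1 had 149, 158 and 129.6 CPM in untreated organoids and 209.7, 203, 217 and 221 CPM with VIP. All VIP-treated samples were above all untreated samples, 0.53 higher on the log2 scale (SE 0.098, adjusted p = 0.00540). The share of all genes whose groups do not overlap was not computed, here or in the comparisons below. The neighbouring paralog Ceacam2 (chr7:25516042-25539857, minus strand) is nearly identical in part, so reads of either could be split; it was listed with 0 to 4 counts per sample. Lypd8, the most abundant of the 8 in whole organoids, lay at 967, 928 and 1373 CPM untreated and at 1120.4, 1146, 1236 and 1139 CPM with VIP. It was higher in mice 1 and 2 and lower in mouse 3, and the log2 difference of 0.12 had an interval from -0.07 to 0.31 (adjusted p = 0.609).

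Pigr, which carries polymeric immunoglobulin across the epithelium, was at 751, 859.8 and 541 CPM untreated and at 698, 727, 535 and 629.6 CPM with VIP. Each mouse was slightly lower with VIP, and the groups overlapped. The log2 difference of -0.12 had an interval from -0.29 to 0.05 (adjusted p = 0.548).

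The oxidase pair gave the largest fold changes of the 8 genes in whole organoids, from low levels. Duoxa2 was counted 48, 24 and 42 times in untreated organoids and 147, 157, 210 and 149 times with VIP, or 8.15, 4.78 and 12.02 CPM against 25.8, 24.8, 33.8 and 27.4 CPM. No VIP-treated sample fell into the untreated range, and the level was 3.48-fold higher (1.80 on the log2 scale, SE 0.18, adjusted p = 5.1e-05). Duox2 was counted 23, 20 and 17 times untreated and 78, 62, 56 and 63 times with VIP, or 3.90, 3.98 and 4.86 CPM against 13.7, 9.80, 9.01 and 11.6 CPM. These groups did not overlap either, and the level was 2.59-fold higher (1.38 on the log2 scale, SE 0.24, adjusted p = 0.00420). Counts were by unique molecular identifier near the 3′ end, 1 per molecule, so levels of different genes are compared with no division by length.

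**Figure D2:**
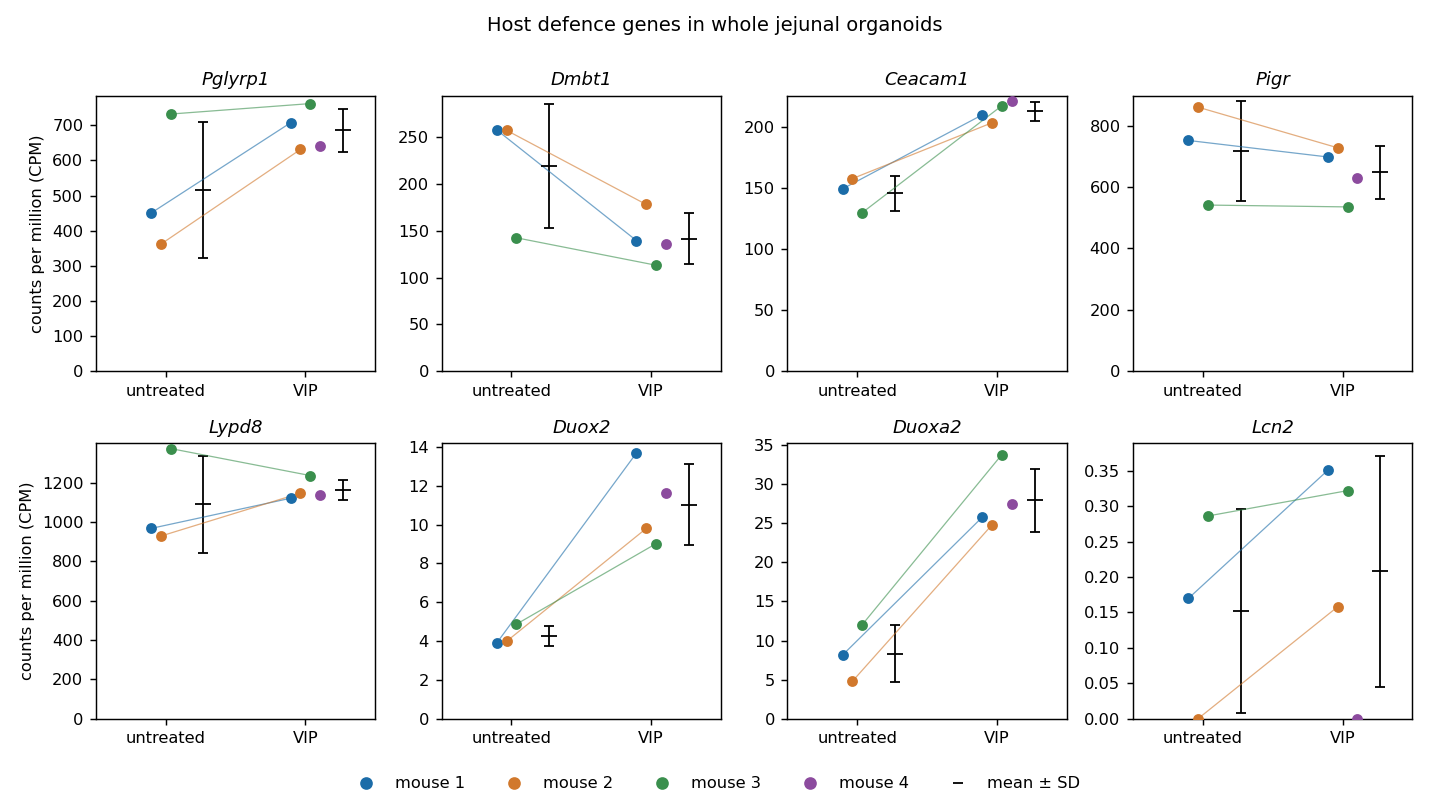
CPM (vertical axes, linear, from 0) of the 8 genes in untreated (n = 3) and VIP-treated (n = 4) whole organoids; points are mice, lines join samples of 1 mouse and black bars give the mean ± SD. Duox2, Duoxa2 and Ceacam1 do not overlap between the groups, whereas Pglyrp1 and Dmbt1 overlap through mouse 3, and Lcn2 stays at or below 0.351 CPM.

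The calls in whole organoids depended on the libraries of VIP-treated mouse 3. Without its second library, 6 of the 7 tested genes passed, Pigr among them (log2 difference -0.29, adjusted p = 0.0465), and 1261 genes in all were called. Without its first library, 0 of the 7 and 0 genes in all passed in edgeR, so the goblet marker and list calls given below did not remain either. The log2 differences were then 1.32 for Duoxa2 (adjusted p = 0.727), 0.37 for Ceacam1 (adjusted p = 0.732) and 0.25 for Pglyrp1 (adjusted p = 0.945). The adjusted p of Duox2 was 0.450 there. Without mouse 1, Duoxa2 and Ceacam1 remained past the threshold (adjusted p = 1.39e-06 and 0.0353), and without the pairing by mouse, Duoxa2 and Duox2 did (0.0193 and 0.0313). Of 23 alternatives, Pglyrp1 lost its call in 6, Dmbt1 in 3, Ceacam1 and Duox2 in 2 each and Duoxa2 in 1, the analysis without the first library of VIP-treated mouse 3 being among them for each gene. With only the first library of every sample, Pigr was at -0.41 (adjusted p = 0.00999) and Dmbt1 at -0.96, and without the first library of VIP-treated mouse 3 Dmbt1 was at -0.36 (adjusted p = 0.931).

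Markers of other cell types were also followed. With VIP in whole organoids, 0 of 5 Paneth, 0 of 5 stem, 0 of 3 tuft and 0 of 3 enteroendocrine markers were called. Of 7 goblet cell markers tested, 7 were higher with VIP in whole organoids and 6 were called. Their summed level ran from 5346 to 7216 CPM untreated and from 7709.9 to 9398 CPM with VIP. The summed enterocyte markers ran from 12997 to 13310 CPM untreated and from 10261 to 12772 CPM with VIP, with 1 of 7 called higher and 1 lower. Neutrophil markers, whose cells make Pglyrp1 and Lcn2 in quantity, summed to between 0.170 and 1.72 CPM untreated and between 2.03 and 5.69 CPM with VIP. All of those counts came from Ltf and Ly6g, and the defining S100a8, S100a9, Mpo, Elane and Ngp are not listed in the whole organoid table. In bulk samples fewer cells of a type and less RNA per cell cannot be told apart, and the part of cell composition in these results was not tested.

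Other genes of the same defences were followed through 5 lists. Of 8 tested genes of the Ly6/Lypd and CEACAM surface protein list (19 genes), 7 were higher with VIP in whole organoids. Of the 8, 5 were called higher and 0 lower, with a median log2 fold change of 1.53. The 4 with the smallest p were Ly6a (2.40, SE 0.13, adjusted p = 1.59e-07), Ly6d (2.90, SE 0.19), Ly6m (3.37, SE 0.32) and Ly6c1 (3.11, SE 0.50), all GPI-anchored Ly6 family proteins. Ly6c1 had a low average level, at 1.52 on the log2 CPM scale. Of 7 tested secreted antimicrobial and antiprotease genes (18 in the list), 5 were higher and 2 were called. Wfdc2, a whey acidic protein family antiprotease, rose by 2.66 (SE 0.19). Zg16, a lectin of mucus that binds Gram-positive bacteria and one of the goblet markers above, rose by 1.67 (SE 0.10). Of 15 tested sensor and IL-17, IL-22 and IL-1 receptor signalling genes (23 in the list), 11 were higher. Only Il1rn, the interleukin 1 receptor antagonist, was called (2.59, SE 0.13, adjusted p = 9.79e-08). None of 5 tested DUOX and NOX oxidase genes (12 in the list) and none of 8 tested immunoglobulin receptor and transcytosis genes (9 in the list) passed, with medians of 0.09 and 0.18. Nox1, a colonic-type oxidase, had a log2 difference of -0.85 (SE 0.36, adjusted p = 0.248), and Duoxa2 and Duox2 were the only genes of the oxidase machinery examined that passed.

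In sorted Lgr5-EGFP+ cells after 72 h of VIP, 5 of the 8 genes were tested and 0 passed in edgeR or DESeq2, against 0.0885% of 6778 genes tested. Of the 5, 2 had an unadjusted p under 0.05. Pglyrp1 was at 768, 569, 692 and 659 CPM untreated and at 1066, 922, 961 and 929 CPM with VIP. All 4 VIP-treated samples were above all 4 untreated ones, an order whose share over all genes was not computed. The log2 difference of 0.53 (SE 0.13) had an adjusted p of 0.125. Of 10 alternatives, 3 brought it under the threshold, library-size scaling to 0.0143, while the others ran up to 0.9996 without mouse 4. Dmbt1 fell short as well, with 30.2, 41.5, 20.2 and 63.3 CPM untreated and 12.1, 22.6, 10.2 and 43.6 CPM with VIP. It was lower in 4 of 4 mice from 6 to 37 counts per sample, with a log2 difference of -0.86 (SE 0.29, adjusted p = 0.659).

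The other surface genes showed no such order in these cells. Ceacam1 was at 163, 209, 136 and 186 CPM untreated and at 164, 162, 217 and 204 CPM with VIP, and the log2 difference of 0.10 had an interval from -0.21 to 0.41. Pigr (501 to 763 against 515 to 594 CPM) and Lypd8 (307 to 506 against 325 to 462 CPM) overlapped fully. Duox2 and Duoxa2 had 3 to 10 counts per sample, too few to be tested: Duoxa2 lay between 5.03 and 13.7 CPM untreated and between 6.83 and 9.69 CPM with VIP. None of the 5 lists had a called gene here. Of 6 tested goblet markers 0 were higher and 1 was called lower, with a median log2 fold change of -0.546. The summed stem cell markers ran from 4203 to 5849 CPM untreated and from 5348 to 6699 CPM with VIP.

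The test of whether the VIP response differed between sorted cells and whole organoids called 0 of 7 of the genes in edgeR or DESeq2, 3 of them at an unadjusted p under 0.05, against 0.147% of 10186 genes tested. The largest difference was for Duoxa2, whose VIP response was lower in sorted cells by a log2 difference of -1.96 (SE 0.51, adjusted p = 0.208). For Duox2 it was -1.17 (SE 0.55, adjusted p = 0.777) and for Ceacam1 -0.43 (SE 0.20, adjusted p = 0.753). Duoxa2 and Duox2 failed the filter in sorted cells alone, at 3 to 10 counts per sample, and were tested here with the whole organoids included. Their differences thus rest on few sorted-cell counts and on the same whole organoid samples in which they were called. The Pglyrp1 responses differed by 0.03, with an interval from -0.34 to 0.40. Among the list genes Zg16 was called, its response being lower in sorted cells by -2.22 (SE 0.30, adjusted p = 0.000871), and 3 of 7 goblet markers were called lower in the same test. The 2 experiments used different mice, and only the sorted cells came from reporter mice, so the genotype differed as well. Whether the experiments were sequenced together is not given in the sources used here. Compartment, genotype and experiment therefore cannot be told apart.

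In the irradiation experiment VIP was again accompanied by higher Pglyrp1 and Ceacam1. In non-irradiated sorted cells, 3 of 6 tested genes passed, 2 higher and 1 lower, against 0.742% of 9976 genes. Pglyrp1 was at 568, 625, 593 and 614 CPM untreated and at 719.7, 735, 803 and 815 CPM with VIP, higher in 4 of 4 mice with no overlap (0.35 on the log2 scale, SE 0.063, adjusted p = 0.00406). Ceacam1 was at 189, 210.3, 205 and 224 CPM untreated and at 363, 308, 252 and 292 CPM with VIP, also without overlap (0.55, SE 0.093, adjusted p = 0.00273). Dmbt1 was at 27.6, 36.3, 24.6 and 23.3 CPM untreated and at 16.1, 16.6, 13.0 and 11.5 CPM with VIP. It was lower in all 4 mice without overlap, by 1.95-fold (-0.96 on the log2 scale, SE 0.22, adjusted p = 0.0337), on 19 to 58 counts per sample. That call ended in 5 of 9 alternatives, each time a mouse was left out (adjusted p up to 0.174) among them. Leaving out mouse 3 or mouse 4 also ended the call for Pglyrp1 (adjusted p = 0.0580 and 0.0787).

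The remaining tested genes did not pass in non-irradiated cells. Lypd8 was lower with VIP in 4 of 4 mice, from 589.6, 595, 501 and 620.2 CPM to 518, 511, 466 and 480.4 CPM, with a log2 difference of -0.22 (SE 0.068, adjusted p = 0.134). Pigr was lower in 4 of 4 mice too, at 371, 259.7, 252 and 258 CPM against 275, 212, 242 and 199 CPM (-0.29, SE 0.12, adjusted p = 0.311). Duoxa2 lay between 5.02 and 9.16 CPM untreated and between 5.19 and 11.3 CPM with VIP, and its log2 difference of 0.16 had an interval from -0.46 to 0.79. Fcgrt, the neonatal Fc receptor that carries IgG, was the only list gene called, and it fell by 1.68 (SE 0.37, adjusted p = 0.0300). Its average level was low, at 2.89 on the log2 CPM scale. The summed goblet markers were at 5407 to 8327 CPM untreated and at 4809 to 5415 CPM with VIP, and the summed enterocyte markers at 982 to 1335 and 644 to 897 CPM, with 0 of 7 and 2 of 6 called lower. The summed stem cell markers were at 3157 to 4243 CPM untreated and at 5065 to 5569 CPM with VIP, with 1 of 5 called higher, and the part of these markers in the results was not tested. Duox2 had 2 to 8 counts per sample across the irradiation experiment, at 1.51 to 5.02 CPM, and was not tested there.

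In irradiated cells, 2 of 6 tested genes passed with VIP, both higher, against 0.221% of 9976 genes. Pglyrp1 was at 530.1, 559, 629.9 and 625 CPM irradiated and untreated, and at 689, 757, 837 and 739 CPM irradiated and VIP-treated (0.37 on the log2 scale, SE 0.063, adjusted p = 0.00529). Ceacam1 was at 185, 174, 213 and 197 CPM and at 257, 229, 257 and 295 CPM in the same order (0.44, SE 0.096, adjusted p = 0.0426). Neither gene overlapped between the groups, and each was higher in 4 of 4 mice. The call for Ceacam1 was lost in 7 of its 11 alternative analyses, with adjusted p-values up to 0.527 when mouse 4 was left out. Leaving out mouse 3 ended the call for Pglyrp1 (adjusted p = 0.0873). None of the 5 lists had a called gene in this comparison. Stem cell markers were again higher, at 2249 to 2653 CPM against 2859 to 3465 CPM, with 1 of 5 called. The summed enterocyte markers went from 1234 to 2672 CPM to 898 to 993 CPM, with 1 of 6 tested called lower, and the goblet markers from 7197 to 10254 CPM to 6609 to 8419 CPM, with 1 of 7 called lower. Paneth markers summed to 12055 to 22524 CPM and to 12069 to 13845 CPM, with 0 of 5 called. The part of these markers in the results was not tested.

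Dmbt1 with VIP after irradiation showed no common direction, at 12.4, 12.1, 4.83 and 14.9 CPM untreated and 13.9, 17.5, 12.5 and 6.49 CPM with VIP. It was higher in 3 mice and lower in mouse 4, with a log2 difference of 0.17 (SE 0.27, adjusted p = 0.982). The VIP response of Dmbt1 thus read -0.96 without and 0.17 with irradiation, and the test of that difference gave 1.13 (SE 0.35, unadjusted p = 0.00328, adjusted p = 0.678, edgeR). Across all genes the test of VIP response by irradiation called 0 (0%) of 9976 with edgeR and 0 with DESeq2, 634 had an unadjusted p under 0.05, and of the 6 tested genes here 0 passed. The Pglyrp1 responses differed by 0.01, with an interval from -0.16 to 0.19.

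Irradiation of untreated organoids was accompanied by lower Dmbt1 and Lypd8 in the sorted cells, 2 of 6 tested genes, against 4.46% of 9976 genes. Dmbt1 went from 27.6, 36.3, 24.6 and 23.3 CPM to 12.4, 12.1, 4.83 and 14.9 CPM, lower in 4 of 4 mice without overlap and 2.53-fold lower in the fit (-1.34 on the log2 scale, SE 0.23, adjusted p = 0.00077). Lypd8 went from 589.6, 595, 501 and 620.2 CPM to 506, 423, 432 and 493 CPM. It was lower in 4 of 4 mice, with overlap between the groups (-0.32, SE 0.069, adjusted p = 0.00597), and leaving out mouse 2 or mouse 4 ended the call (adjusted p = 0.0967 and 0.0642). Pglyrp1 differed by -0.04, with an interval from -0.16 to 0.09, and Ceacam1 by -0.12, with an interval from -0.31 to 0.07.

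In VIP-treated organoids, irradiation was accompanied by 0 called genes of 6, against 7.78% of 9976 genes, in edgeR or DESeq2, with 2 of the 6 at an unadjusted p under 0.05. Dmbt1 differed by -0.21 (SE 0.25) and Lypd8 by -0.12 (SE 0.069), and the largest difference was that of Duoxa2, at -0.73 (SE 0.34, adjusted p = 0.211) on 5 to 15 counts per sample. The irradiation comparisons without and with VIP use the same 4 mice but no sample in common, and each shares its samples with the VIP comparisons above. The effects of irradiation on them were not shown to differ by VIP treatment.

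Other defence genes in the sorted cells were higher after irradiation. In untreated organoids 5 of 5 tested secreted antimicrobial genes were higher and 3 were called. These were Itln1 (intelectin, a microbial glycan-binding lectin) by 1.02 (SE 0.14), Ang4 (a Paneth cell ribonuclease) by 1.32 (SE 0.18) and Zg16 by 1.71 (SE 0.31). Il1rn rose by 1.38 (SE 0.23) and Il17re, a subunit of the interleukin 17C receptor, by 1.61 (SE 0.31). They were the 2 called of 9 tested sensor and receptor genes, 7 of which were higher. In the surface list 4 of 5 were higher and 2 were called, Ly6a by 1.34 (SE 0.25) and Ly6e by 0.54 (SE 0.11). No gene of the oxidase or immunoglobulin lists passed. With VIP the called genes were Itln1 (0.82, SE 0.14), Ang4 (1.18, SE 0.19), Ltf (lactoferrin, 1.55, SE 0.39), Il1rn (1.71, SE 0.22), Myd88 (0.43, SE 0.13), Ly6a (1.39, SE 0.27), Ly6d (1.65, SE 0.44) and Ly6e (0.36, SE 0.11). Ltf rested on 3 to 19 counts per sample.

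Markers of mature cells moved with irradiation in the same sort. Paneth markers rose in 5 of 5 genes, both without and with VIP, from a summed 8793 to 12346 CPM to 12055 to 22524 CPM without VIP. Without VIP, 7 of 7 goblet markers were higher and 5 were called (summed, from 5407 to 8327 CPM to 7197 to 10254 CPM). Of 5 stem cell markers 2 were called lower, the summed level going from 3157 to 4243 CPM to 2249 to 2653 CPM. Their part in the Dmbt1 and Lypd8 results was not tested. Itln1 and Ang4 belong to both the Paneth and the antimicrobial list, and Zg16 to the goblet and the antimicrobial list.

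**Figure D3:**
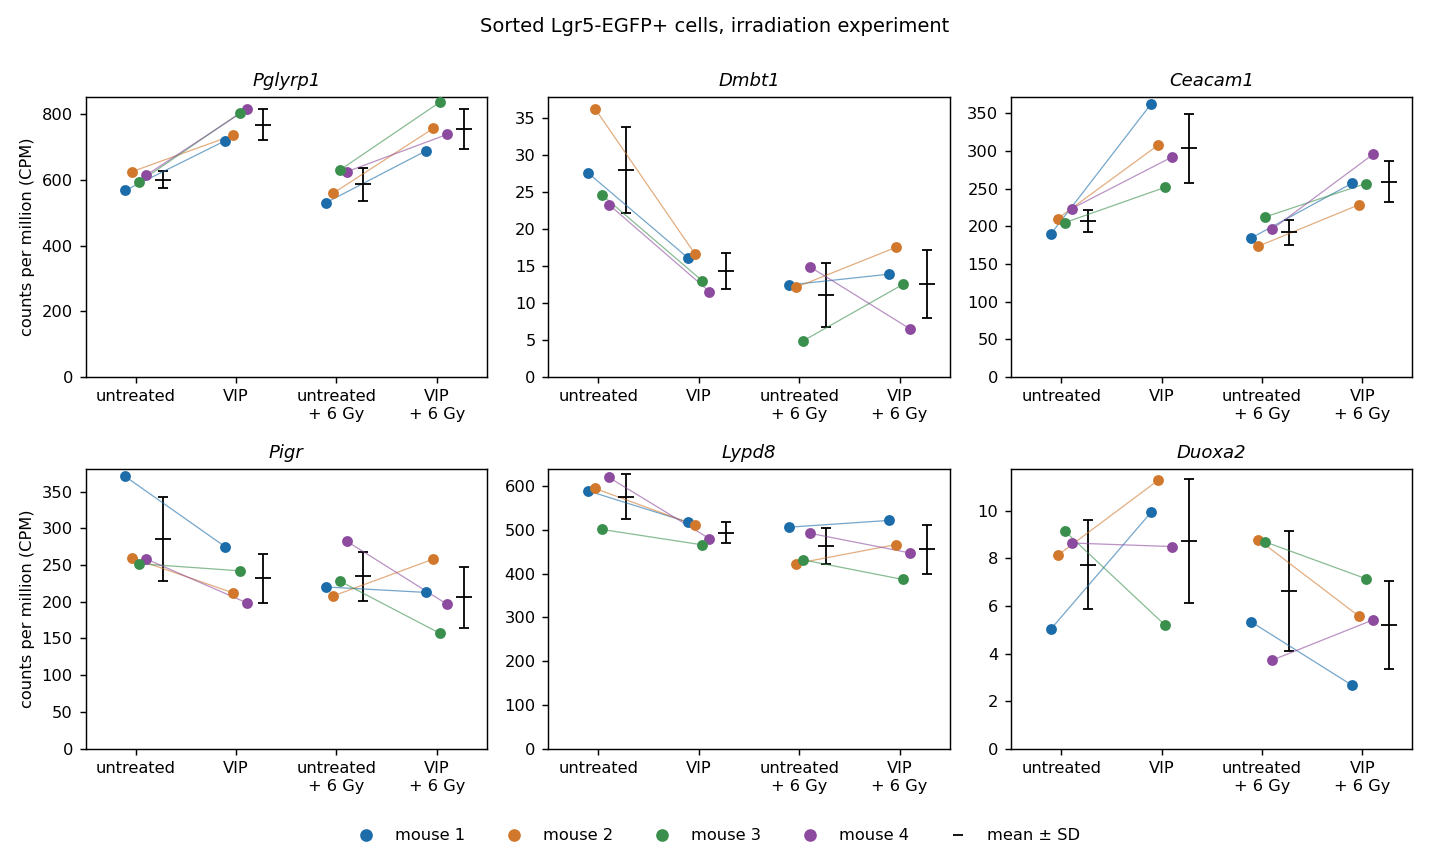
CPM (vertical axes, linear, from 0) of 6 of the genes in sorted Lgr5-EGFP+ cells of the irradiation experiment, 4 mice per group; points are mice, lines join the untreated and VIP-treated samples of 1 mouse at the same irradiation and black bars give the mean ± SD. Pglyrp1 and Ceacam1 rise along every line, while Dmbt1 falls along every line without irradiation and is already at 4.83 to 14.9 CPM in irradiated untreated cells.

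Set side by side, the VIP differences of Pglyrp1 were 0.50 in whole organoids, 0.53 in the first sorted experiment, 0.35 without and 0.37 with irradiation, on the log2 scale. Those of Ceacam1 were 0.53, 0.10, 0.55 and 0.44, and those of Dmbt1 -0.59, -0.86, -0.96 and 0.17. The 3 experiments were normalised separately, and the sorted samples with and without irradiation share mice. Pglyrp1 was higher with VIP in each of the 15 mouse pairs of these comparisons and Ceacam1 in 14, while Dmbt1 and Pigr were each lower in 12. Lypd8 was lower in 10, Duox2 higher in 11 and Duoxa2 higher in 7. Such counts were not taken over all genes, and these genes were chosen with their responses known.

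**Figure D4:**
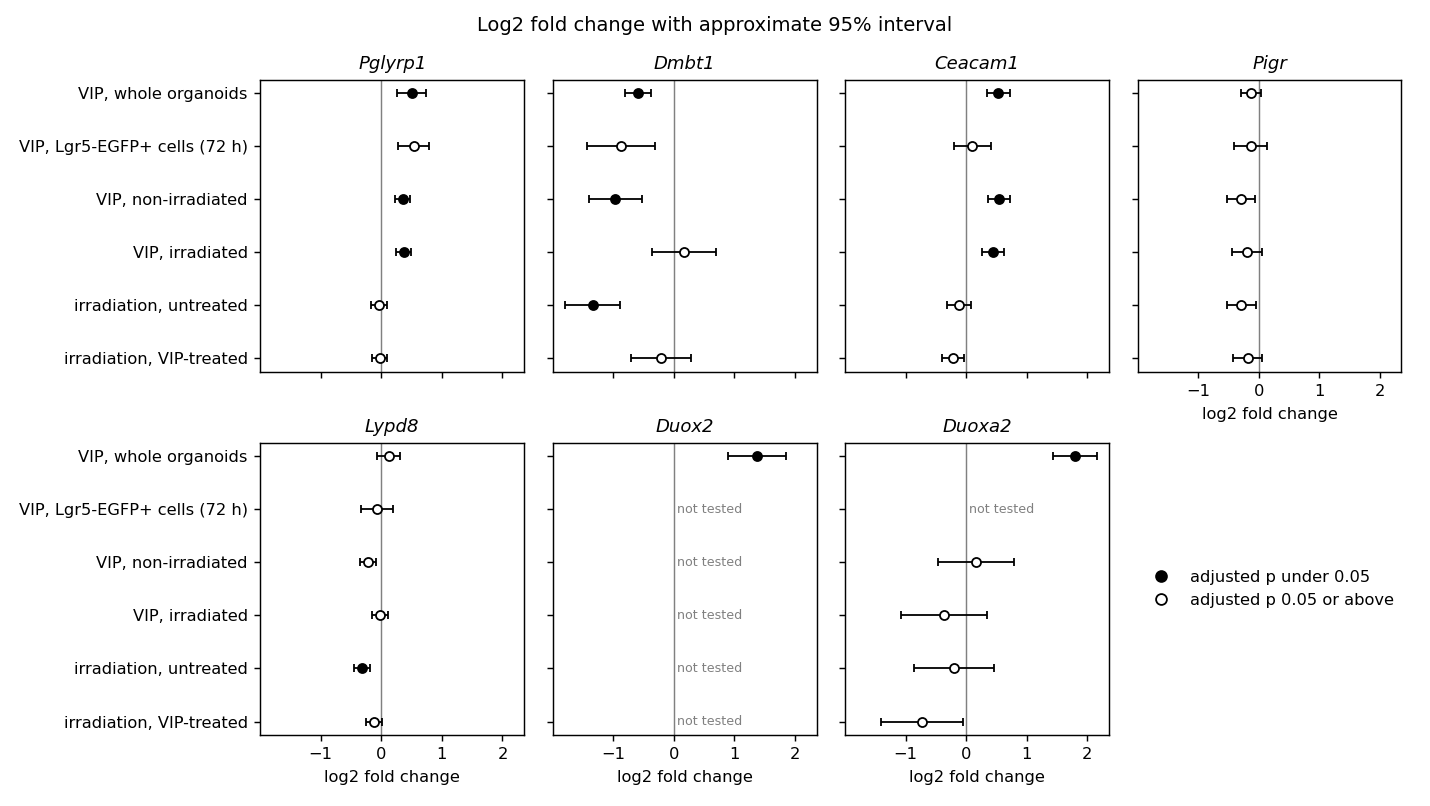
Log2 fold changes (horizontal axes; bars, approximate 95% intervals) of 7 of the genes in 6 comparisons, from the model across all genes; filled points passed an adjusted p of 0.05 and open points did not. Pglyrp1 lies between 0.35 and 0.53 in the 4 VIP comparisons and within 0.04 of 0 in both irradiation comparisons, and Duox2 was tested in whole organoids only.

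The levels of the genes in untreated samples are set out by compartment, as values from separately normalised tables. Differences between them were not tested, and compartment cannot be told apart from experiment, genotype and sequencing depth. Dmbt1 had a mean of 219 ± 66.4 CPM (SD, n = 3) in whole organoids, 38.8 ± 18.5 CPM (n = 4) in sorted cells of the first experiment and 27.9 ± 5.85 CPM (n = 4) in the other. Lypd8 was at 1089 ± 246, 409.9 ± 87.3 and 577 ± 52.0 CPM, and Pigr at 717 ± 162, 607 ± 123 and 285 ± 57.2 CPM in the same order. Pigr overlapped between whole organoids (541 to 859.8 CPM) and the first sorted experiment (501 to 763 CPM). Pglyrp1 (515 ± 194, 672 ± 82.5 and 600.1 ± 25.4 CPM) and Ceacam1 (145 ± 14.3, 173 ± 31.4 and 207 ± 14.1 CPM) were not lower in the sorted cells. In untreated whole organoids the order from the top was Lypd8, Pigr, Pglyrp1, Dmbt1, Ceacam1, Duoxa2, Duox2 and Lcn2, where Pigr and Pglyrp1 overlapped, as did Dmbt1 and Ceacam1, and Duoxa2 and Duox2. In sorted cells Pglyrp1 and Pigr overlapped in the first experiment and not in the other, where Pglyrp1 and Lypd8 did.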

How the data were processed

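The deposited tables hold counts of unique molecular identifiers per gene from 3′ RNA sequencing of 37 libraries, which the authors made with the Drop-seq pipeline (version 1.0) on GRCm38. Raw counts, without normalisation, were used here. Technical replicate libraries were summed per mouse, giving 31 samples, where mouse 4 of the whole organoids has no untreated sample. Genes were filtered by edgeR's filterByExpr, scaled by TMM and tested with edgeR 4.0.16 (glmQLFit, glmQLFTest, R 4.3.3) in a model paired by mouse, with Benjamini-Hochberg adjustment over all genes tested and a threshold of 0.05. CPM are counts over TMM-scaled library sizes. The SE was derived from the edgeR test, as the absolute log2 fold change over the square root of the F statistic. Approximate 95% intervals are the estimate ± 1.96 SE. They leave out the residual degrees of freedom, so they can be narrower than the test implies. DESeq2 1.42.0 was an alternative to edgeR. The tests were also run on simulated counts with no mouse effect and with changes larger than those of Pglyrp1, Ceacam1 and Dmbt1. That check does not cover differences as small as theirs. Organoid cultures of 1 mouse were paired because the labels give both arms the same mouse. Their deviations from the group means correlated at 0.283 to 0.656 in whole organoids, 0.0292 to 0.212 in the first sorted experiment and -0.0707 to 0.158 in the irradiation experiment, where different mice reached 0.356, 0.150 and 0.204, in the last case above any same-mouse pair. The genes and lists were chosen with earlier results of these data known. All 8 genes are named, as are the genes of each list past the threshold with the smallest p (at most 4 per list in whole organoids and 3 elsewhere). Nox1, Clca1, Ceacam2, Duoxa1, Mpo and S100a9 were named after their values were seen.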

Additional observations from a re-analysis of the deposited data

Results flagged for a closer look

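In non-irradiated, untreated sorted cells of the irradiation experiment, Pigr was at 371 CPM in mouse 1 and at 252 to 259.7 CPM in the other 3 mice, so that mouse 1 stood apart by Dixon's test. It was the 1 such case in 49 groups of 4 samples tested, where chance gives about 1 in 20. Without mouse 1 the log2 difference of Pigr with irradiation in untreated cells was -0.11 (adjusted p = 0.713), against -0.29 with it.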

How the results depend on the processing

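Each comparison is followed in brackets by its reported number of called genes and how many of the 8 described genes were among them. In whole organoids (614, 5) DESeq2 called 300.0 genes, a filter on any count 979 and the analysis with no replicate block, that is without pairing by mouse, 99 (2). Leaving out the second library of VIP-treated mouse 3 gave 1261, and leaving out its first library, chosen after seeing the data, gave 0 (0), where Pigr turned to 0.059; leaving out each mouse gave 363 to 1668 (2 to 6). With VIP in sorted cells (6, 0) DESeq2 gave 2, library-size scaling 14 (1), any count 17, at least 10 counts per sample 11 (1), no replicate block 1 and leaving out a mouse 3 to 17 (0 to 1). Without irradiation (74, 3) any count gave 182, no replicate block 34, only the groups compared 184 and leaving out a mouse 32 to 42 (1 to 2). With irradiation (22, 2) DESeq2 gave 12 (1), any count 110.0, at least 10 counts (1), no replicate block 12 (1), only the groups compared 52 and leaving out a mouse 5 to 35 (0 to 1). For irradiation untreated (445, 2) DESeq2 gave 281, at least 10 counts 1 of the 8 and leaving out a mouse 176 to 643 (1 to 2); with VIP (776, 0) DESeq2 gave 489 and leaving out a mouse 426 to 691. For VIP by irradiation (0) any count gave 34 and leaving out a mouse 0 to 1. For VIP by compartment (15) library size gave 9, any count 57, at least 10 counts 7, no replicate block 0, the first libraries only 28, the second library of VIP-treated mouse 3 left out 27 and leaving out a mouse 4 to 41. The causes were not tested.

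Signs turned only for differences that had not passed the threshold, all with an adjusted p above 0.7 after the turn. For VIP by compartment, Pigr (main -0.010) went to 0.013 with library-size scaling, 0.0051 with no replicate block, 0.26 with first libraries only and 0.15 with the second library of VIP-treated mouse 3 left out; Pglyrp1 went to -0.15 and -0.095 in the last 2 and Dmbt1 to 0.11 with first libraries only. With each mouse left out in turn, log2 differences that crossed 0 ran as follows: for VIP by compartment Pglyrp1 -0.177 to 0.121 and Pigr -0.0860 to 0.0693, for VIP by irradiation Ceacam1 -0.209 to 0.0172, Pglyrp1 -0.0510 to 0.0731 and Pigr -0.0685 to 0.294, for VIP in sorted cells Ceacam1 -0.0757 to 0.259 and Pigr -0.259 to 0.0125, without irradiation Duoxa2 -0.0617 to 0.446, after irradiation Dmbt1 -0.0463 to 0.528 and Lypd8 -0.0804 to 0.0182, for irradiation untreated Pglyrp1 -0.0734 to 0.00325 and Duoxa2 -0.347 to 0.0128, and for irradiation with VIP Pglyrp1 -0.0477 to 0.0134. Low counts kept Lcn2 under the expression filter of every reported comparison and Duox2 under that of the comparisons within sorted cells.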
